A study of Mus musculus with 4 samples.

Results

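Single-nucleus RNA-seq of kidney tissue enriched for medulla was used to describe 61 genes of the extracellular matrix, out of 31053 genes counted. The members are 43 collagen chain genes, 11 laminin chain genes and 7 further genes, the nidogens Nid1 and Nid2, Hspg2 (perlecan), Agrn (agrin), Fn1 (fibronectin), Npnt (nephronectin) and Egflam (pikachurin). They were chosen by gene symbol, namely Col or Lam with a chain number or one of these 7 names, with Col5a2 not analysed here. Nuclei came from a middle slice of the kidney, trimmed of cortex to favour medullary cells, from 4 male mice aged 12 weeks, and still held cortical types such as podocytes. The 2 control mice were Cre-negative Tfap2a fl/fl animals and the 2 knockout mice were Hoxb7Cre+;Tfap2a fl/fl animals, so that all 4 mice carried floxed alleles of Tfap2a, the gene of the transcription factor AP-2α. Hoxb7Cre is driven by a homeobox B7 promoter, which is active in the collecting duct and the lower urinary tract epithelium. Which nuclei had lost the floxed exons was not measured. The questions were in which cell classes each gene was expressed and whether its level differed between control and knockout mice.

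A basement membrane is a thin sheet of matrix under every epithelium and endothelium. Its scaffold is a network of type IV collagen, built from chains α1 to α6 that assemble as triple helices, and a network of laminins, each a trimer of an α, a β and a γ chain, which nidogens and perlecan link to each other. In the kidney the α1 and α2 chains are widespread, whereas the α3, α4 and α5 chains form the mature glomerular basement membrane and also occur in tubules, and loss of any of these 3 chains causes Alport syndrome. The fibrillar collagens and fibronectin, by contrast, make up the interstitial matrix and are products of fibroblasts.

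The 4 libraries held 22179410 to 44964099 UMIs, where a UMI is 1 counted RNA molecule, and gave 5430 to 7998 nuclei each and 27343 in all. Between 7 and 18 barcodes were shared by any 2 libraries. Nuclei fell into 12 named classes of 106 to 13663 nuclei, and every class was named from its own markers. In controls 1 and 2 and then knockouts 1 and 2, thin limb made up 2.15, 5.10, 1.26 and 2.14% of the nuclei. Principal cells made up 4.19, 8.71, 3.30 and 3.12% and interstitial nuclei 1.36, 1.40, 0.75 and 0.62%. Proximal tubule went the other way, with 51.8, 35.9, 54.6 and 54.1%, as did connecting tubule and distal convoluted tubule. These shares were not tested. Levels are given as CPM, counts scaled to a common total of UMIs for each class in each mouse, and can be compared for 1 gene between classes but not between genes, because longer genes can yield more UMIs. Pairs of values are listed as mouse 1 and then mouse 2 of a genotype. RNA from broken cells that floats in the droplets made up an estimated 20.7, 9.33, 27.5 and 6.78% of the UMIs of thick ascending limb nuclei in controls 1 and 2 and then knockouts 1 and 2. The same estimate was higher in endothelial nuclei, at 28.7, 16.6, 40.3 and 22.0%, and in interstitial nuclei, at 25.6, 13.7, 43.6 and 21.9%, and reached 50.8% in immune nuclei. The deleted exons of Tfap2a lie before the 3′ end that this kit reads, so its level checks little, and in principal cells its level overlapped between groups, at 58.01 and 99.5 CPM in controls and 67.3 and 111 CPM in knockouts. In connecting tubule it was 119 and 124 CPM in controls and 73.9 and 70.6 CPM in knockouts, with no overlap. In deep medullary epithelium of the pelvis the controls had 10 and 11 Tfap2a UMIs and the knockouts 0 and 0, where 0 allows a level of up to 10.1 CPM over both.

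Type IV collagen genes lie in neighbouring pairs, and the starts of each pair face each other. In the RefSeq annotation of GRCm38.p6, Col4a1 (chr8:11198423-11312889, minus strand) and Col4a2 (chr8:11312805-11449287, plus strand) share 85 bases at their starts. Likewise Col4a4 (chr1:82448419-82587034, minus strand) and Col4a3 (chr1:82586921-82722059) share 114 bases, and Col4a6 (chrX:141165403-141474095, minus strand) and Col4a5 (chrX:141475370-141689236, plus strand) are separated by 1274 bases. The sequences below are the RefSeq windows of 250 bases before to 50 bases after a transcript start, 5′ to 3′ on the gene's own strand, for the genes of these pairs that have one and for Npnt and Col8a1, which the results below turn on. For Col4a1, Col4a4, Col4a5 and Col4a6 that start lies within the bounds of the gene given above, not at its outer end. Capitals mark matches to GCCNNNGGC, the core motif of AP-2 factors, which reads the same on both strands.
Col4a1 (chr8:11312777-11313076, minus strand): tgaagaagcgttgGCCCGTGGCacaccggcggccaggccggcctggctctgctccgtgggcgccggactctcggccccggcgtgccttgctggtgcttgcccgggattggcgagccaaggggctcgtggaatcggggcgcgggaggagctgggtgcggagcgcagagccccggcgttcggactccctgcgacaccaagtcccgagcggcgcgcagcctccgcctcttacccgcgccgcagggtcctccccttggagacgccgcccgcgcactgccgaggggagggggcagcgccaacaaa
Col4a2 (chr8:11312555-11312854, plus strand): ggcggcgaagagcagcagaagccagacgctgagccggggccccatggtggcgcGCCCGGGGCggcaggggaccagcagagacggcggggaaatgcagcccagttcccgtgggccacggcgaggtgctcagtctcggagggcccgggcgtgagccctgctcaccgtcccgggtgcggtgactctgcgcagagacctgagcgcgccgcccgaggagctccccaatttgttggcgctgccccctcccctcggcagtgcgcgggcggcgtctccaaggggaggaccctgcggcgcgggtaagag
Col4a4 (chr1:82586800-82587099, minus strand): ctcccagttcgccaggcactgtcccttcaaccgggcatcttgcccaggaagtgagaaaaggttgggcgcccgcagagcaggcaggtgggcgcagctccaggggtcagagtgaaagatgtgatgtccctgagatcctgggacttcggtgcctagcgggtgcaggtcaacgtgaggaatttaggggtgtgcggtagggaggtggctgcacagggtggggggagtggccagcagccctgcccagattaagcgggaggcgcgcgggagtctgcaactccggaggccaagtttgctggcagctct
Col4a5 (chrX:141475169-141475468, plus strand): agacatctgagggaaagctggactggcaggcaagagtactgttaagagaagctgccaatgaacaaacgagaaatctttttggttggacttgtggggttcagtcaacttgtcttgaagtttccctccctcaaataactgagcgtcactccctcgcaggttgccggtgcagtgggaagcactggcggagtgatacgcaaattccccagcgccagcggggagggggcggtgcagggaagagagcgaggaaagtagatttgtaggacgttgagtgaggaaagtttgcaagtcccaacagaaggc
Col4a6 (chrX:141474027-141474326, minus strand): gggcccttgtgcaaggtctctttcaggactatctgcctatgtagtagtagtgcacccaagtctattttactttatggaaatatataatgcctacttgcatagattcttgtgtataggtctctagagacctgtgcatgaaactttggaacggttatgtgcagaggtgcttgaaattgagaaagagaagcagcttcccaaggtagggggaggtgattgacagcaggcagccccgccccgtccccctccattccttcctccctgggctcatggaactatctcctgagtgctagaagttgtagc
Npnt (chr3:132950242-132950541, minus strand): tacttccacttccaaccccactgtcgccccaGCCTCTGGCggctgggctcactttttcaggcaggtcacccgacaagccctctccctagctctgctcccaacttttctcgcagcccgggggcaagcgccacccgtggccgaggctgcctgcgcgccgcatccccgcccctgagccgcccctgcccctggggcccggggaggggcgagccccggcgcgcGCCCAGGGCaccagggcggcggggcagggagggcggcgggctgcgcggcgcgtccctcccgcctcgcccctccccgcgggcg
Col8a1 (chr16:57754688-57754987, minus strand): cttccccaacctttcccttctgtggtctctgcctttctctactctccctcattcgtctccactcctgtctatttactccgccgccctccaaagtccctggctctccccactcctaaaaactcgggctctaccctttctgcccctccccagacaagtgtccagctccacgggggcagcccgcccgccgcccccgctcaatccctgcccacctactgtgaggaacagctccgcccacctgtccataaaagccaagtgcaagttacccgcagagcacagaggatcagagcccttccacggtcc

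The windows of Col4a1 and Col4a2 share 78 bases, which are read from opposite strands. Each of these 2 windows held 1 match to GCCNNNGGC and the window of Npnt held 2, whereas those of Col4a4, Col4a5, Col4a6 and Col8a1 held none. A window was found for 45 of the 61 members, of which 10 held the motif (22.2%), against 16.5% of the 27025 RefSeq windows of the same length. GGGCGG, searched on both strands, was present in 30 of the 45 windows (66.7%) against 35.9% of all windows, and CCAAT on both strands in 15 (33.3%) against 37.9%. These matches describe the letters only and are not evidence of binding.

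All 61 members had at least 1 UMI in the nuclei kept, and together they had 254781 UMIs. Of these, 37 had at least 200 UMIs and are described by class, 21 collagen genes, 10 laminin genes and 6 others. Of the 37, 12 were highest in interstitial nuclei, 6 in proximal tubule, 5 in podocytes, 4 in endothelium, 4 in the pelvic epithelium, 3 in thin limb, 2 in intercalated cells and 1 in principal cells. The same class ranked first in all 4 mice for 24 of the 37, and for 17 its lowest mouse lay above the highest mouse of the class ranked second. Classes were built from the same nuclei, partly with the members themselves, hence the differences between classes are a description without a test.

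**Figure D1:**
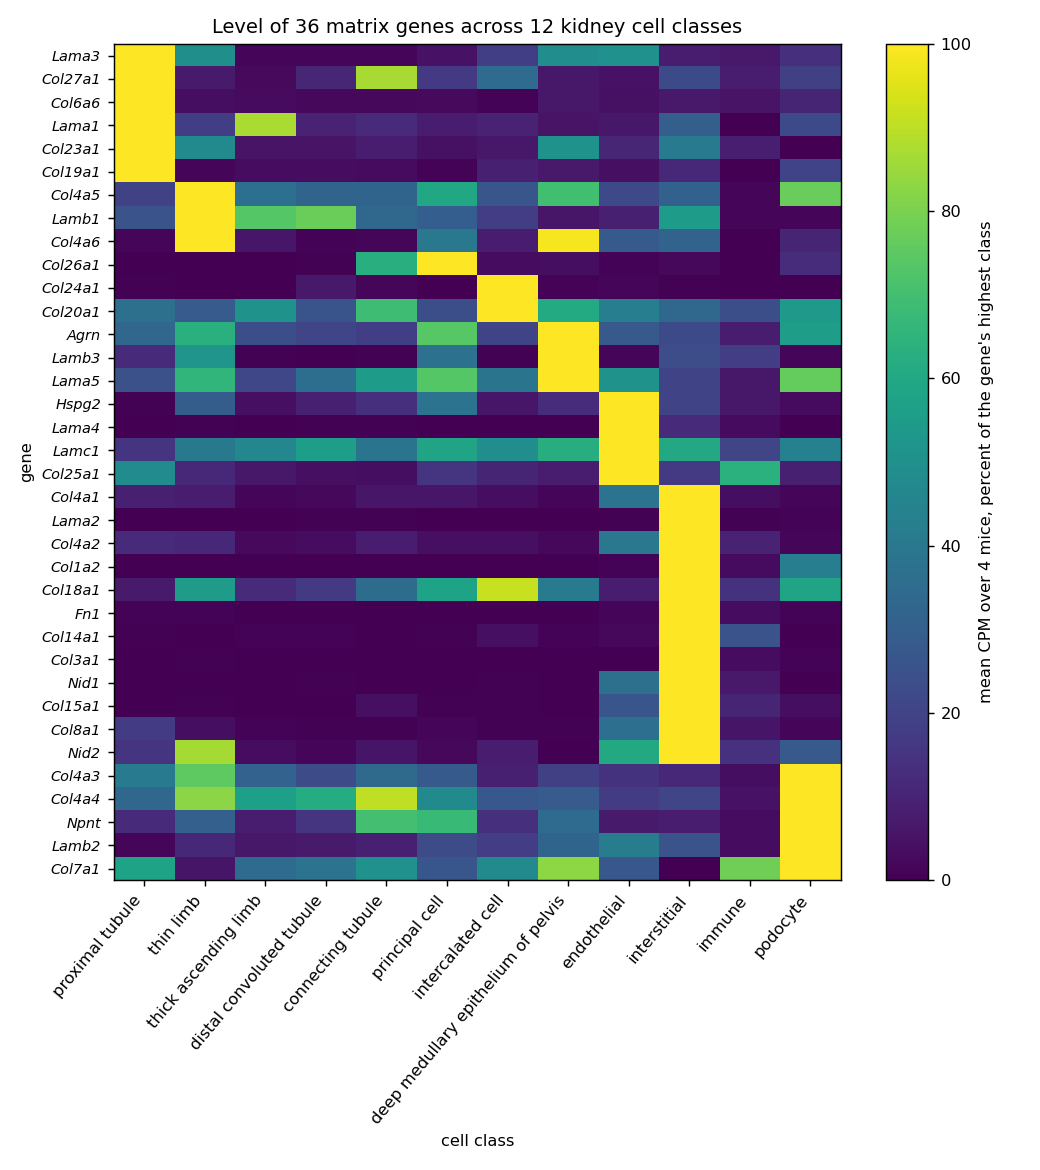
The heat map shows the mean CPM over 4 mice of the members with at least 200 UMIs (rows, 1 member not shown) in the 12 classes (columns), each as a percentage of the gene's highest class. The 12 genes of the long block in the interstitial column are highest in interstitial nuclei, whereas the chains of type IV collagen other than Col4a1 and Col4a2 are highest in podocytes and thin limb.

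Col4a1 and Col4a2, which encode the widespread α1 and α2 chains, were highest in interstitial nuclei. Col4a1 was measured at 1104 and 1433 CPM in controls and 1183 and 673 CPM in knockouts. In endothelium, which ranked second, its level was 444 and 487 CPM in controls and 432 and 311 CPM in knockouts. All mice were higher in interstitial nuclei than any mouse in endothelium. The remaining classes had less, and podocytes had 15.1 ± 11.6 CPM (mean ± SD, n = 4 mice), which does not exceed the 3.88 to 18.3 CPM that free RNA was estimated to give. Col4a2 followed the same order, with 672 ± 201 CPM in interstitial nuclei and 269 ± 49.3 CPM in endothelium. Within the interstitium both genes were highest in subcluster I0, which carried fibroblast markers such as Pdgfra, at 1524 ± 465 CPM for Col4a1, against 567 ± 121 CPM in the mural subcluster, which also held Ren1.

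Col4a3, which encodes the α3 chain, was highest in podocytes, the cells that make the glomerular basement membrane, at 2449 and 3217 CPM in controls and 2282 and 2052 CPM in knockouts. Thin limb ranked second, at 1946 and 3103 CPM in controls and 1090.0 and 1387 CPM in knockouts, so that its highest mouse overlapped with podocytes. Proximal tubule with 1027 ± 230.5 CPM, connecting tubule with 859.6 ± 132 CPM and thick ascending limb with 791 ± 146 CPM followed and did not differ beyond their spread. Col4a3 had at least 1 UMI in 99.1% of podocyte nuclei, 91.3% of thin limb nuclei and 83.2% of proximal tubule nuclei, at median depths of 2452, 2143 and 3179 UMIs, and in 7.55% of immune nuclei, at 1308.5 UMIs. At the lower end were intercalated cells, with 220.3 ± 106 CPM, and immune nuclei, in which 94.0 ± 106 CPM lay within the 30.3 to 96.4 CPM estimated for free RNA. Hence Col4a3 was high in tubular epithelium in which Col4a1 was low, and its Pearson r with Col4a1 over the 12 class means was -0.24.

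Col4a4, which encodes the α4 chain, was also highest in podocytes, with 1514 ± 421 CPM. Connecting tubule with 1441 and 1416 CPM in controls and 1257 and 1363 CPM in knockouts and thin limb with 1251 ± 468 CPM overlapped with podocytes. Col4a5, the gene of the α5 chain, was highest in thin limb, at 566 and 864 CPM in controls and 485 and 602 CPM in knockouts. It was lower and overlapping in podocytes, with 486 ± 103 CPM, and in the pelvic epithelium, with 439 ± 123 CPM, and was lower in principal cells, with 374 ± 61.9 CPM. Col4a6, whose α6 chain is known from Bowman's capsule and collecting duct, was high in fewer classes. Thin limb had 299 ± 123 CPM of Col4a6, the pelvic epithelium 295 ± 50.04 CPM and principal cells 120.3 ± 21.3 CPM, whereas connecting tubule had 4.58 ± 4.78 CPM. Therefore the paired genes Col4a5 and Col4a6 parted in the connecting tubule, where Col4a5 was present at 203 ± 37.03 CPM.

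**Figure D2:**
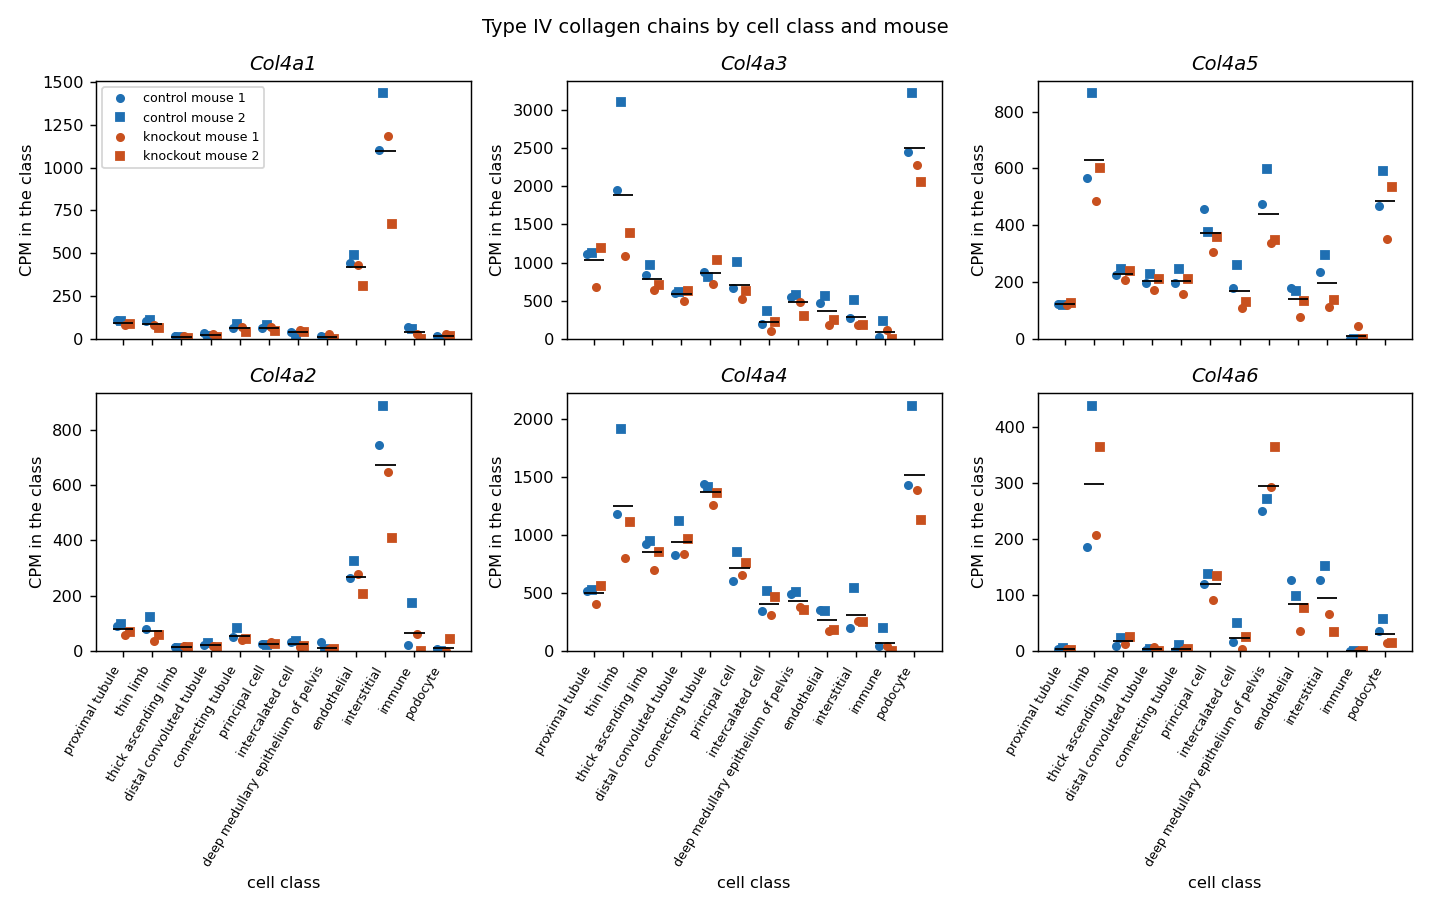
Level of the 6 type IV collagen genes in CPM (vertical axis, linear and from 0) by class (horizontal axis), with 1 point per mouse (blue, control; orange, knockout) and a line at the mean of 4 mice. Col4a1 and Col4a2 stand out in interstitial nuclei and endothelium, and Col4a3 reaches 2052 to 3217 CPM in podocytes.

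The laminin α chains, which carry the main binding sites for cell receptors, divided the classes among themselves. Lama3 was highest in proximal tubule, at 281 and 240.1 CPM in controls and 295 and 282 CPM in knockouts. Endothelium had 139 ± 25.4 CPM of Lama3 and thick ascending limb 3.42 ± 1.48 CPM, which is no higher than the 2.86 to 19.8 CPM expected from free RNA. Lama2 was nearly restricted to interstitial nuclei, at 867 and 1131 CPM in controls and 1033 and 1094 CPM in knockouts, with 9.26 ± 10.7 CPM in the class ranked second. Lama4, a vascular chain, was highest in endothelium, at 186 and 318 CPM in controls and 235 and 272 CPM in knockouts, and was 29.9 ± 24.4 CPM in interstitial nuclei. In contrast to these, Lama5, the chain of most mature epithelial basement membranes, was spread over many classes, with 174 ± 42.3 CPM in the pelvic epithelium, 133 ± 41.3 CPM in podocytes and 128 ± 23.4 CPM in principal cells. Lama1, a chain of the early kidney, was highest in proximal tubule, with 57.7 ± 12.7 CPM, overlapping with thick ascending limb, with 50.3 ± 22.7 CPM.

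Among the β chains, Lamb1 was highest in thin limb, at 235 and 549.7 CPM in controls and 175 and 264 CPM in knockouts, and overlapped with distal convoluted tubule (237 ± 65.3 CPM) and thick ascending limb (225 ± 31.4 CPM). Lamb2, the β chain of the mature glomerular basement membrane whose loss causes congenital nephrotic syndrome, was highest in podocytes, at 144 and 266 CPM in controls and 238 and 188 CPM in knockouts. Endothelium had 88.7 ± 20.05 CPM of Lamb2 and proximal tubule 2.58 CPM. Lamb3, a β chain of epithelial anchoring sites, was highest in the pelvic epithelium, at 137 and 180.0 CPM in controls and 219.9 and 241 CPM in knockouts, and had 102 ± 13.7 CPM in thin limb. The pelvic epithelium also had 135 ± 66.3 CPM of Lama3. Lamc1, the common γ chain, was highest in endothelium, with 156 ± 33.0 CPM, and lowest in proximal tubule, with 23.7 CPM. Lamc3 had 177 UMIs in all and was highest in interstitial nuclei, with 151 ± 49.1 CPM.

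The linker Nid1 was highest in interstitial nuclei, at 318 and 342 CPM in controls and 338 and 285 CPM in knockouts, followed by endothelium with 118 ± 9.90 CPM, and the groups did not overlap. Nid2, its homologue, had 50.6 ± 44.9 CPM in interstitial nuclei and 43.8 ± 9.27 CPM in thin limb, and its order differed from mouse to mouse. Hspg2, a heparan sulphate proteoglycan, was highest in endothelium, at 290.0 and 293 CPM in controls and 255 and 348 CPM in knockouts, and next in principal cells, with 113 ± 17.6 CPM. Agrn, the heparan sulphate proteoglycan of the glomerular and tubular basement membrane, was highest in the pelvic epithelium, with 279.6 ± 48.3 CPM, and overlapped with principal cells, with 207 ± 50.4 CPM. Npnt, the ligand of integrin α8β1 in kidney development, was highest in podocytes among the 12 classes, at 1251 and 1332 CPM in controls and 1148 and 1214 CPM in knockouts. Connecting tubule with 865 ± 173 CPM and principal cells with 838 ± 283 CPM of Npnt came next.

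Principal cells were not alike. They divided into Aqp3-high nuclei, Aqp3-low nuclei that share the sodium channel gene Scnn1b with them, and nuclei with the urea transporter gene Slc14a2, a marker of the inner medullary collecting duct, with 58 further nuclei, 40 of them from control mouse 2, in none of these groups. Npnt was measured at 1894 and 2459 CPM in controls and 1797 and 1281 CPM in knockouts in Aqp3-high nuclei, and at 342 and 417 CPM in controls and 254 and 295 CPM in knockouts in Slc14a2-high nuclei. Every Aqp3-high value lay above every Slc14a2-high value. Col26a1, a little-studied collagen, was highest in Aqp3-low Scnn1b-high nuclei, at 878 and 644 CPM in controls and 426 and 929.7 CPM in knockouts, and Aqp3-high nuclei had 379 ± 52.3 CPM. Slc14a2-high nuclei had 3.08 and 26.9 CPM in controls and 11.3 and 91.3 CPM in knockouts, of which knockout mouse 2 was the highest. Col4a1 was 171 ± 52.1 CPM in Aqp3-high nuclei and 7.56 ± 1.58 CPM in Slc14a2-high nuclei, the latter within the range of free RNA.

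Other members had their higher level in the Slc14a2-high nuclei. Lamb3 had 0 UMIs in Aqp3-high nuclei of all 4 mice, which allows up to 2.38 CPM over the 4, and was measured at 149 and 69.2 CPM in controls and 152 and 86.8 CPM in knockouts in Slc14a2-high nuclei. Col4a6 followed Lamb3, with 156 ± 15.3 CPM in Slc14a2-high and 54.9 ± 37.6 CPM in Aqp3-high nuclei. Col18a1, whose C-terminal fragment is endostatin, had the opposite order and was 461 ± 97.4 CPM in Aqp3-high and 186 ± 60.5 CPM in Slc14a2-high nuclei. These groups were made from the same nuclei, thus their differences are not tested either.

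**Figure D3:**
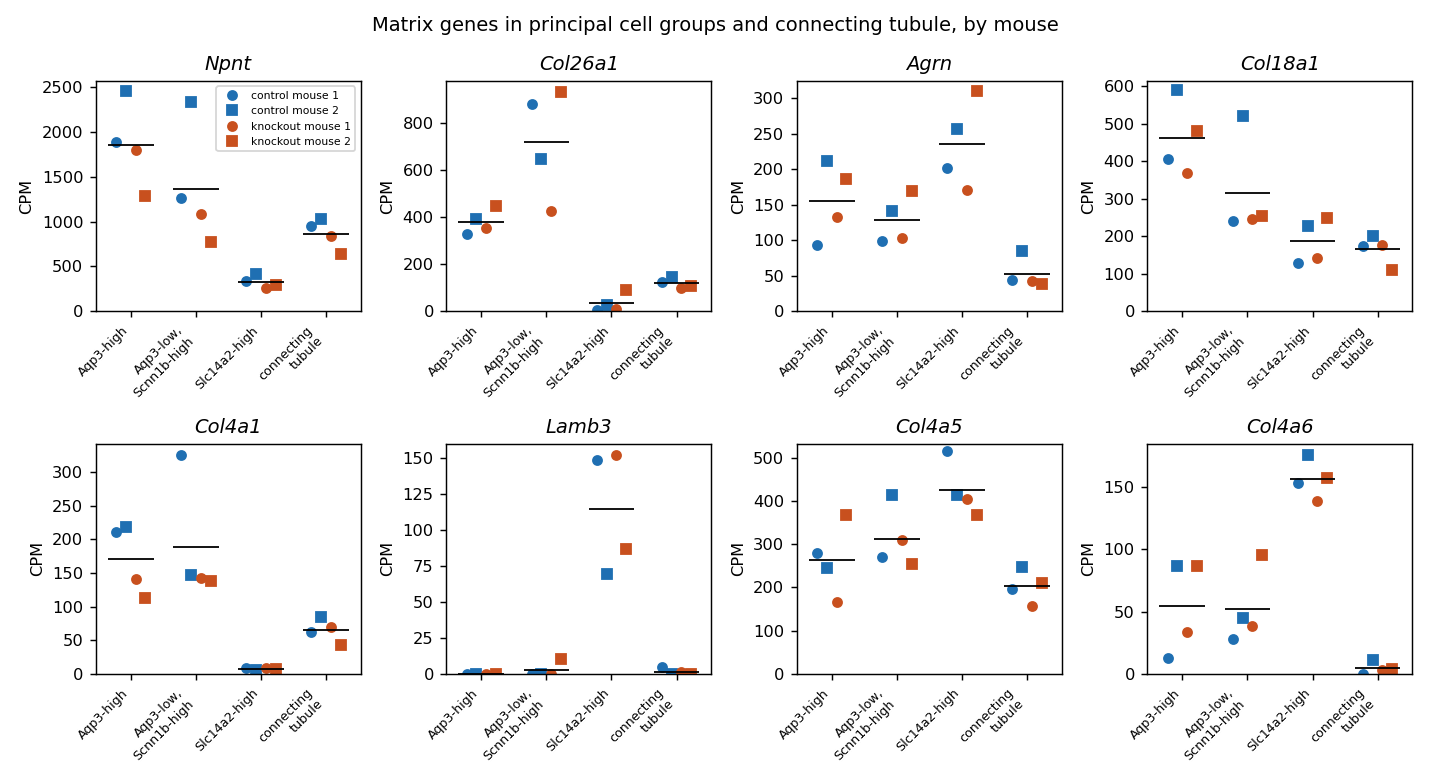
Level in CPM (vertical axes, from 0) of 8 members in 3 groups of principal cell nuclei and in connecting tubule (horizontal axes), with 1 point per mouse (blue, control; orange, knockout) and a line at the mean of 4 mice. Npnt, Col26a1 and Col4a1 are high in the Aqp3-high nuclei and low in the Slc14a2-high nuclei, and Lamb3 and Col4a6 are high in the Slc14a2-high nuclei.

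Genes of the interstitial matrix were concentrated in interstitial nuclei. Col1a2 and Col3a1, chains of the fibrillar collagens I and III, were measured at 351 and 401 CPM in controls and 347 and 844 CPM in knockouts for Col1a2 and at 242 and 434 CPM in controls and 319 and 752 CPM in knockouts for Col3a1. Both were highest in knockout mouse 2. Col1a1, with 107 UMIs in all, was 99.5 and 112 CPM in controls and 75.1 and 410.4 CPM in knockouts, and knockout mouse 2 stood apart in the same way. Fn1 was 308 and 421 CPM in controls and 554 and 513 CPM in knockouts, and was not called in the comparison of genotypes below. Without the interstitial subcluster I4 its values overlapped, at 325 and 561 CPM in controls and 592 and 519 CPM in knockouts. Col14a1, a fibril-associated collagen, had 441 ± 141 CPM, Col15a1 162 ± 69.1 CPM, Col5a1 162 ± 51.5 CPM, Col6a1 112 ± 38.4 CPM, Col6a3 171 ± 43.9 CPM and Egflam 195 ± 50.5 CPM. In none of these 6 genes did the interstitial nuclei of any mouse overlap with the class ranked second. Col8a1, a short-chain collagen of vessel walls, was 33.2 and 322 CPM in controls and 56.3 and 114 CPM in knockouts in interstitial nuclei, with control mouse 2 far above the others, and 48.2 ± 32.4 CPM in endothelium. Outside the interstitium, podocytes had 208 ± 94.4 CPM of Col1a2.

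A further set of collagens was highest in tubular epithelium. Col27a1, a fibrillar collagen, was highest in proximal tubule, at 148 and 158 CPM in controls and 184 and 413 CPM in knockouts, and overlapped with connecting tubule, with 196 ± 67.4 CPM. Col6a6, a chain of the beaded collagen VI, was 135 ± 65.05 CPM in proximal tubule and at most 14.0 CPM in any other class. Col19a1 with 39.9 ± 19.3 CPM and Col23a1, a transmembrane collagen, with 43.9 ± 16.9 CPM were highest there too. Col24a1 was highest in intercalated cells, at 258 and 163 CPM in controls and 278 and 147 CPM in knockouts, against 14.6 ± 10.1 CPM in distal convoluted tubule, and no mouse overlapped. Col18a1 was shared between interstitial nuclei, with 468 ± 70.6 CPM, and intercalated cells, with 429 ± 54.2 CPM. Col12a1, with 195 UMIs in all, was highest in the endothelial subcluster of arterial cells and descending vasa recta, with 149 ± 84.3 CPM from 27 UMIs.

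The other 24 members had fewer than 200 UMIs, and those of them that are named with a level here were chosen after their values were seen. The sparsest were Col9a2 with 1 UMI, Col2a1 with 4, Col22a1 with 9 and Col8a2 with 13. Col2a1 and the Col9 genes encode cartilage collagens. Col7a1, Col20a1 and Col25a1 passed 200 UMIs, but their highest class means were 7.23 ± 14.5, 23.8 ± 12.4 and 26.1 ± 13.6 CPM, so that no class stood out.

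Pearson correlations between type IV chains were taken over the 12 class means of log2(CPM + 1), which share their libraries and their depth. Within the head-to-head pairs r was 0.97 for Col4a1 with Col4a2, 0.89 for Col4a3 with Col4a4 and 0.75 for Col4a5 with Col4a6. Between pairs it was 0.82 for Col4a4 with Col4a5 and 0.77 for Col4a3 with Col4a5, so that Col4a5 was no more like its neighbour than like these 2 chains. For Col4a1 and Col4a3 the most alike of 13255 genes were their own partners, Col4a2 and Col4a4. Next to Col4a1 came Col8a1 (0.885), Ggps1 (0.884), Rhoj (0.873) and Pcdh12 (0.870), and next to Col4a3 came Pbdc1 (0.882), 1700123O12Rik (0.874), Gm16168 (0.871) and Arhgef16 (0.859). Among 13256 genes, Col1a1 was most like Abca8a (0.955), Cacna1c (0.953), Col3a1 (0.952), Serpina1b (0.952) and 6530403H02Rik (0.950).

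Next, knockout and control mice were compared within each class. The UMIs of each mouse were summed within a class, and edgeR was fitted to every gene whose sum reached 10, with a call at an adjusted p under 0.05 over all genes of the class. This gave 305 tests of 57 members in 12 classes. None was called lower, beside 0.0038% of all 131572 gene tests (5 tests), and none was called higher, beside 0.0038% (5 tests), and DESeq2 likewise called no member in a class. The lowest adjusted p of a member was 0.234. At an unadjusted p under 0.05, 23 of the 305 tests (7.54%) were lower in knockout mice, against 1.64% of all gene tests, and 7 (2.30%) were higher, against 1.39%. The 7 include Lama1 in intercalated cells and Col27a1 in podocytes, which reached the minimum of 10 UMIs through the knockouts alone. The estimate was below 0 in 193 of the 305. The same gene counts in many of these tests and the same 2 mice of each group in all, hence the tests are not independent of each other. With 2 mice against 2 an exact permutation test cannot go below p = 0.33, so the p-values depend on edgeR's model.

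**Figure D4:**
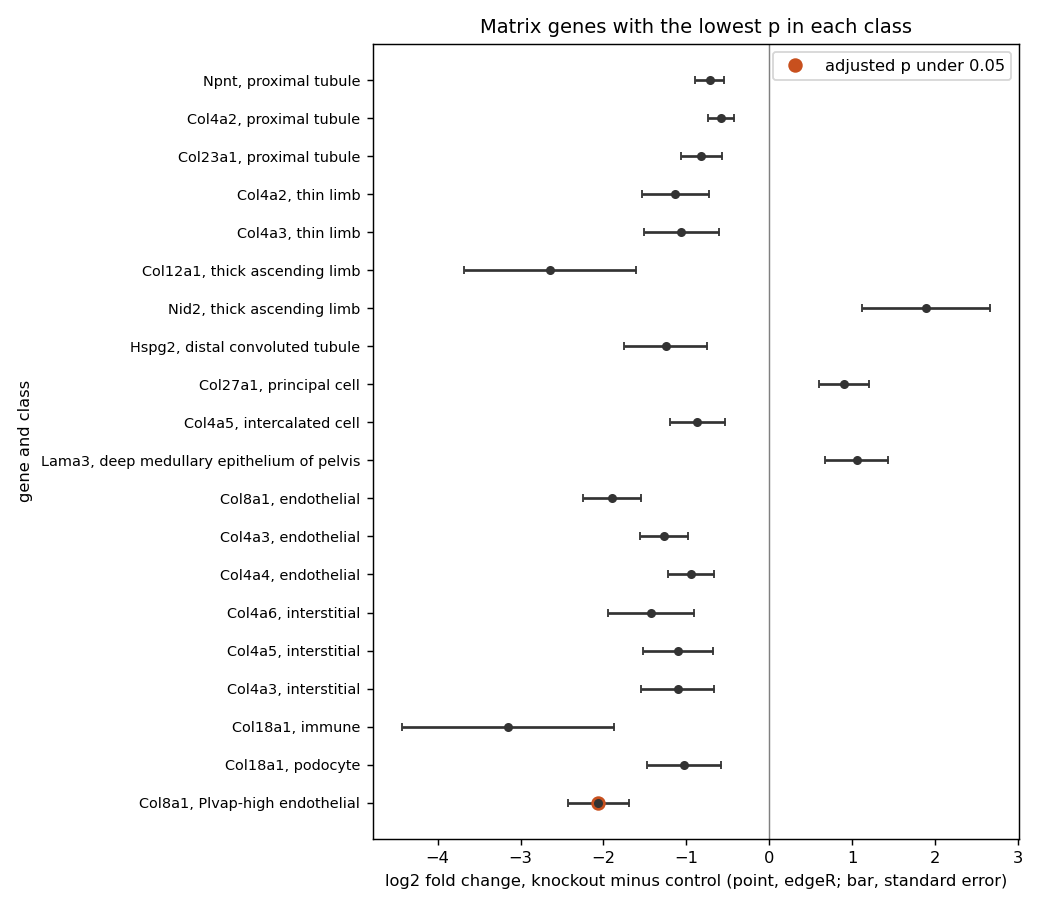
Log2 fold change of knockout minus control mice (horizontal axis; point, estimate; bar, standard error; n = 2 and 2 mice) for up to 3 members in each class with the lowest unadjusted p under 0.05 and groups that do not overlap, and for Col8a1 in Plvap-high endothelium (vertical axis). Only the latter, at -2.06 and marked in orange, has an adjusted p under 0.05, and 2 genes at 0 UMIs in the control mice and 1 member not reported here are left out.

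In endothelium, 6 of 33 members tested were lower at an unadjusted p under 0.05, against 2.25% of all genes there, and none was higher, against 1.66%. Col8a1 was measured at 82.2 and 69.5 CPM in controls and 17.9 and 23.2 CPM in knockouts (log2 fold change -1.90, SE 0.36, adjusted p = 0.234). Named members were chosen for groups that do not overlap, and the adjusted p missed the threshold. In the Plvap-high endothelium, subclusters E0 to E3 that make up most of the class, Col8a1 was 84.6 and 79.3 CPM in controls and 18.6 and 19.6 CPM in knockouts, from 70, 38, 13 and 8 UMIs (log2 fold change -2.06, SE 0.37, adjusted p = 0.0406). It was the only call among 159 tests of members in 7 groups of subclusters, beside 0.0114% of all gene tests in these groups and 0.0245% in the Plvap-high endothelium that were called lower. The call was lost under 7 alternatives. These were DESeq2 (adjusted p = 1.00), edgeR's filterByExpr (0.0530), leaving out control mouse 1 (0.959) or knockout mouse 1 (0.148), under 1% mitochondrial UMIs (0.999), called doublets left out (0.104) and free RNA subtracted (0.389).

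Col8a1 lay almost wholly in subcluster E2, where it was 239.7 CPM over 4 mice, against 1.84, 12.6, 0 and 23.9 CPM in subclusters E0, E1, E3 and E5. Of 5 markers of capillary and venous endothelium E2 carried 2, and of 5 glomerular ones it carried 3. Controls gave 108 and 57 nuclei to subcluster E2, and knockouts 26 and 32. Within E2 the level was 279 and 293 CPM in controls and 147 and 127 CPM in knockouts (log2 fold change -1.06, SE 0.49, adjusted p = 1.00). In Plvap-high endothelium without E2, Col8a1 had too few UMIs to be tested, and in all endothelium without E2 it was 6.32 and 15.9 CPM in controls and 0 and 5.43 CPM in knockouts (adjusted p = 1.00). E2 holds most of the UMIs by which Col8a1 was named, and the numbers of nuclei were not tested.

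The other members lower in endothelium were mainly type IV chains whose levels were several times higher in thin limb. Col4a3 was measured at 468 and 558 CPM in controls and 182 and 241 CPM in knockouts (log2 fold change -1.27, SE 0.29, adjusted p = 0.555), and Col4a4 at 353 and 346 CPM in controls and 177 and 181 CPM in knockouts (log2 fold change -0.94, SE 0.27, adjusted p = 0.894). Col4a5, Col4a6 and Col12a1, chosen after their values were seen, had log2 fold changes of -0.74, -1.07 and -1.86, with adjusted p from 0.922 to 0.999. Col4a3, too, was highest in E2, with 1065 CPM over 4 mice, against 124 CPM in E0. In all endothelium, 5 or 6 of the 6 thin limb markers were detected in every mouse and summed to 639 and 694 CPM in controls and 330.2 and 485 CPM in knockouts. In the same order they reached 777, 634, 304 and 779 CPM in E2 and 5717, 3994, 5289 and 5286 CPM in E5, the arterial and descending vasa recta nuclei, where they were about as high as the 3887 to 5117 CPM of thin limb itself. Aqp1 belongs both to the thin limb markers and to the markers that named E5, so this sum cannot separate these cell types. In E0 the thin limb markers were at 78.2 to 95.7 CPM. Markers of thick ascending limb came to 3649, 5382, 9616 and 4024 CPM in E2, and 13.0% of its nuclei were called doublets. Their part in the result was not tested. Without E2, Col4a3 in endothelium was 202 and 297 CPM in controls and 133 and 201 CPM in knockouts (log2 fold change -0.57, SE 0.30, adjusted p = 1.00), and Col4a4 153 and 166 CPM in controls and 94.0 and 89.7 CPM in knockouts (log2 fold change -0.76, SE 0.28, adjusted p = 1.00). The estimate of Col4a3 was thereby reduced from -1.27 to -0.57.

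**Figure D5:**
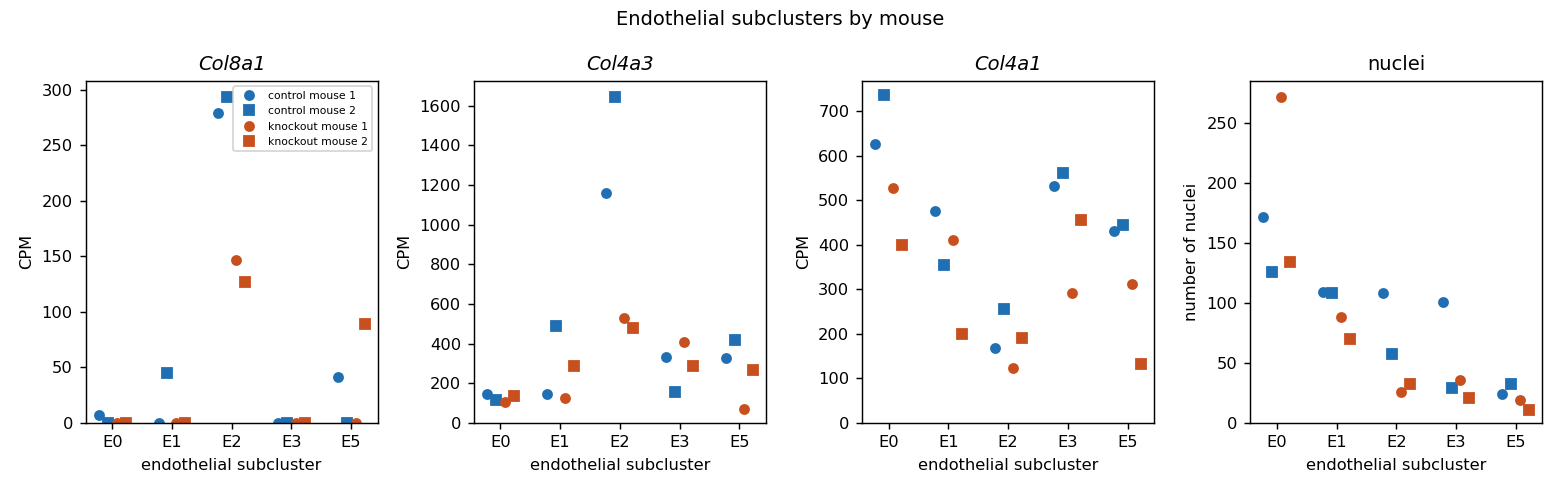
Level in CPM of Col8a1, Col4a3 and Col4a1 (vertical axes, from 0) and number of nuclei (right panel) in the 5 endothelial subclusters kept, with 1 point per mouse (blue, control; orange, knockout). Col8a1 and Col4a3 are highest in E2, which has 108 and 57 nuclei in control and 26 and 32 in knockout mice, whereas Col4a1 is lowest there.

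In thin limb, Col4a3 was measured at 1946 and 3103 CPM in controls and 1090.0 and 1387 CPM in knockouts (log2 fold change -1.06, SE 0.46, adjusted p = 1.00). Its groups did not overlap, as the choice of named members required. Col4a2 in thin limb was 81.5 and 122 CPM in controls and 35.8 and 58.3 CPM in knockouts (log2 fold change -1.13, SE 0.40, adjusted p = 1.00). In interstitial nuclei Col4a3 was 270.1 and 506 CPM in controls and 178 and 182 CPM in knockouts (log2 fold change -1.11, SE 0.44, adjusted p = 0.996), and Col4a5 and Col4a6 had log2 fold changes of -1.10 and -1.43. These 3 chains were highest in subcluster I4, with 22 and 23 nuclei in controls but 6 and 8 in knockouts. Without I4, the estimates were -0.63 for Col4a3, -0.91 for Col4a5 and -0.64 for Col4a6, with unadjusted p of 0.206, 0.105 and 0.415. For the fibrillar collagens of the interstitium no difference was detected in these sums. Col1a1 in Pdgfra-high nuclei was not called (log2 estimate 1.17, adjusted p = 0.998), other than when knockout mouse 1 was left out, so that mouse 2 alone stood for the knockouts and was assumed to vary like the controls.

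In proximal tubule, where the most UMIs were counted, 6 of 53 members were lower at an unadjusted p under 0.05, against 2.15% of all genes of the class, and 2 were higher, against 1.41%. Npnt was 164 and 197 CPM in controls and 100.1 and 121 CPM in knockouts (log2 fold change -0.72, SE 0.17, adjusted p = 1.00). Col4a2 was 89.2 and 99.4 CPM in controls and 59.3 and 67.9 CPM in knockouts (log2 fold change -0.58, SE 0.15, adjusted p = 1.00), and Col23a1 was 44.5 and 67.2 CPM in controls and 28.3 and 35.6 CPM in knockouts (log2 fold change -0.82, SE 0.25, adjusted p = 1.00). These 3 genes were named because their groups did not overlap, and no adjusted p passed the threshold. Col4a1, Col18a1 and Col25a1, chosen after their values were seen, had log2 fold changes of -0.41, -0.40 and -0.98, and Col19a1 and Col27a1 had 1.14 and 0.94. That of Col27a1 was 0.25 without knockout mouse 2. Over the 53 members the median log2 fold change was -0.33, beside 0.02 over all genes of the class, and 38 of the 53 were below 0.

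In the collecting duct, where Cre is expressed, no member was called, as was none of the 13371 genes tested in principal cells or the 11276 in intercalated cells. Of 26 members tested in principal cells, 11 had an estimate below 0 and 15 above, with a median of 0.08. Col27a1 was 28.6 and 25.01 CPM in controls and 52.99 and 47.5 CPM in knockouts (log2 fold change 0.90, SE 0.30, adjusted p = 1.00). Within Aqp3-high nuclei the estimates, chosen after their values were seen, were 1.11 for Col27a1, -0.76 for Col4a1 and -0.77 for Col4a3, each with an adjusted p of 1.00. Npnt in Aqp3-high nuclei, at the values given above, differed in the mean but knockout mouse 1 was close to control mouse 1. Col26a1 in Slc14a2-high nuclei overlapped between groups (log2 fold change 1.67, SE 0.89, adjusted p = 1.00). Its estimate ranged from -0.44 without knockout mouse 2 to 3.96 without control mouse 2, and was called without control mouse 2 and without knockout mouse 1, where 1 mouse stands for a group and is assumed to vary like the other group. In intercalated cells Col4a5 was 178 and 260.2 CPM in controls and 110.1 and 129 CPM in knockouts (log2 fold change -0.87, SE 0.33, adjusted p = 1.00). Lama1 in intercalated cells had 0 UMIs in either control and 7 and 3 in the knockouts, so that it reached the minimum of 10 UMIs through the knockouts alone and its test is not given. In the pelvic epithelium Lama3 was 80.7 and 98.0 CPM in controls and 132 and 229 CPM in knockouts (log2 fold change 1.06, SE 0.38, adjusted p = 0.871), and 9 of 20 members had an estimate below 0.

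Among the remaining classes, Hspg2 in distal convoluted tubule had 14 and 14 UMIs in controls against 7 and 8 in knockouts (log2 fold change -1.25, SE 0.50, adjusted p = 1.00). In thick ascending limb Col12a1 had 4 and 33 UMIs against 1 and 4, and Nid2 3 and 1 against 5 and 9. In podocytes Col27a1, too, passed the minimum only through the knockouts, with 0 UMIs in either control and 6 in either knockout (84.0 and 86.7 CPM, beside 3.92 to 19.0 CPM estimated for free RNA), and Col18a1 was 459 and 266 CPM in controls and 196 and 173 CPM in knockouts (log2 fold change -1.03, SE 0.45, adjusted p = 0.997). In immune nuclei Col18a1 had 5 and 5 against 1 and 0 UMIs, and in connecting tubule no member passed an unadjusted p of 0.05. Each gene named here other than Col27a1 had an adjusted p from 0.996 to 1.00.

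Finally, the change of each member was compared between classes, as the interaction of class and genotype in 88 tests of 53 members, principal cells against thick ascending limb and interstitial against endothelial nuclei. No member was called, beside 0.0649% of 29292 gene tests, and 2 members had an unadjusted p under 0.05, Col25a1 in the first and Lama2 in the second comparison (where 702 of 16006 and 548 of 13286 genes had such a p), with adjusted p of 0.943 and 0.856. Other genes of matrix biology were tested in 4 lists. None of the 24 collagen making and crosslinking enzymes was called in any of the 12 classes (157 tests of 23 genes, 8 lower and 3 higher at an unadjusted p under 0.05), where 0.0038% of all gene tests were called in either direction and 1.64% and 1.39% had such a p. The same held for 17 matrix proteases and inhibitors (98 tests, 5 lower and 0 higher), 16 receptors of collagen and laminin (134 tests, 4 lower and 2 higher) and 27 other matrix genes (155 tests, 12 lower and 7 higher).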

How the data were processed

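Nuclei were isolated from a kidney slice trimmed of cortex and sequenced with a droplet-based 3′ kit. The authors aligned reads to mm10 with Cell Ranger 3.0.2 and deposited, per mouse, a matrix of raw UMI counts for 31053 genes and 6794880 barcodes. From these counts the 10000 barcodes with most UMIs were taken, and those with more than 500 but fewer than 4000 genes, and a mitochondrial share below 5%, were kept as nuclei, which left median depths of 2506 to 2797 UMIs. Nuclei were clustered in Seurat 5.3.0 (2000 variable genes, 30 dimensions, resolution 0.5) and clusters were named from markers. Clusters and subclusters that were mixed or over 50% called doublets (895 nuclei), damaged (1034) or without a name (174) entered no class. Doublets were called with scrublet in scanpy 1.11.5 (236 to 512 nuclei per library) and otherwise stayed in the classes. The share of free RNA was estimated from proximal tubule markers in other nuclei, with barcodes of under 100 UMIs as its profile, and the thick ascending limb value was used for subtraction in every class.

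Counts were summed per mouse and class, genes with at least 10 UMIs were fitted with edgeR 4.0.16 (TMM, quasi-likelihood test, genotype alone) in R 4.3.3, and p-values were adjusted by Benjamini-Hochberg over all genes of a class. The scripts were tested on simulated data. Each library is 1 mouse, thus n = 2 per genotype, and intervals of counting error alone would be too narrow. Members with at least 200 UMIs were described by class, and for genotype up to 3 members per class with the lowest unadjusted p under 0.05 and groups that do not overlap, beside any member called. Alternatives were DESeq2 1.42.0, other filters and scalings, a block for replicate number, leaving out each mouse, stricter nuclei, subtraction of free RNA and other clusterings. The members and lists were chosen with earlier results of these data known. Sequences are from RefSeq (GRCm38.p6). The results of 1 member are not reported here, although it stays in the counts.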

Additional observations from a re-analysis of the deposited data

Results flagged for a closer look

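Nuclei of the cluster without a name, which entered no comparison, had high levels of 4 type IV collagen genes. Over 4 mice pooled, Col4a3 was 2652 CPM, Col4a4 was 1715 CPM, Col4a5 was 1137 CPM and Col4a6 was 618 CPM in it. The cluster held 174 nuclei, 19 and 106 from controls, 15 and 34 from knockouts, so that the pooled values rest mostly on control mouse 2, and 8.62% of the nuclei were called doublets. The 4 genes were singled out because the pooled values lay above the highest class mean, which by mouse holds for Col4a3 and Col4a4 in control mouse 2 alone, and for Col4a5 not in knockout mouse 1. By mouse, Col4a3 was 2386 and 3278 CPM in controls and 1295 and 1473 CPM in knockouts, and Col4a4 was 1179 and 2121 against 971 and 1036 CPM. Col4a5 was 1207 and 1242 CPM in controls and 459 and 1067 CPM in knockouts, and Col4a6 was 439 and 690.4 against 378 and 569 CPM. Its leading genes were Psca, Lypd2, Akr1b3, Nrip3 and Sptssb, and it carried 2 of 7 markers of the pelvic epithelium and 1 of thin limb. Hence it could not be assigned to a class. With it added to thin limb, Col4a3 had a log2 fold change of -1.06 between knockout and control mice, as without it.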

How the results depend on the processing

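The count of members called lower in knockout mice over the 12 classes, 0 as reported, was 3 without a filter on low counts (Col4a3 and Col8a1 in endothelium, Col12a1 in thick ascending limb), 1 with the replicate block (Col4a3 in thin limb), and 0 to 1 when each mouse was left out in turn. Over all gene tests of the classes, 5 were called lower as reported, 105 without the filter, 129 with the block and 20 to 91 without each mouse. Without knockout mouse 2, Col8a1 in endothelium was the 1 call. No member was called higher in a class under any alternative run. In the groups of subclusters, 1 call was reported, and the count was 0 with DESeq2, with the filter of edgeR's filterByExpr, under 1% mitochondrial UMIs, without called doublets and with free RNA subtracted. It was 2 without a filter, 4 with the replicate block and 0 to 2 when each mouse was left out, namely 0 without control mouse 1 and 2 without control mouse 2 or knockout mouse 1. Beside Col8a1 in Plvap-high endothelium, Col26a1 in Slc14a2-high principal cells was called in both cases of 2 calls, and without knockout mouse 1, where Col8a1 was lost, Col1a1 in Pdgfra-high interstitial nuclei was the other call. Without a filter, the 2 calls were Col4a3 and Col8a1 in Plvap-high endothelium, among 13 lower and 20 higher genes of all 18361 there. In the paired fit with the replicate block, Col4a3, Col4a4, Col4a6 and Col8a1 of Plvap-high endothelium were called, among 35 lower and 67 higher genes of all 12248 there, against 3 and 1 without the block. The labels do not say whether the numbers mark a shared litter or day, and same-numbered mice deviated together with r from 0.36 to 0.69 in 11 classes, which rests on only 2 pairs. Of the named genotype values, 590 of the repeats kept direction and side of the threshold, 9 gained and 7 lost a call, and 1 reversed, Col4a5 in Plvap-high endothelium, at 0.125 under 1% mitochondrial UMIs. The cause was not tested. The highest class of the 37 members was kept by 32 to 37 of them. The alternatives with members left out of clustering and with resolution 0.8 were not run for subclusters. Classes of few nuclei, such as immune and podocyte nuclei, limited the depth, and only 5 and 12 members could be tested there. Leaving out E2 or I4 and adding the cluster without a name were chosen after seeing the data.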

Other observations

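Genes that act on the matrix, named here after their values were seen, were also spread unevenly over the classes. Among the enzymes, Plod2, a lysyl hydroxylase, was highest in podocytes with 729.9 ± 277.8 CPM (mean ± SD, n = 4 mice) and had 123.5 CPM in the class ranked second. Tll1, a protease that removes the C-propeptide of procollagens, was highest in endothelium with 449 ± 51.2 CPM, against 51.2 CPM in the second. Adamts3, which removes the N-propeptide, was highest in connecting tubule with 238 ± 58.9 CPM. Among the receptors, Itga1, a chain of the collagen receptor integrin α1β1, was highest in interstitial nuclei with 882 ± 136 CPM, whereas Sdc4 was highest in podocytes with 1288 ± 390.2 CPM. Of other matrix genes, Fbln5, which takes part in elastic fibre assembly, was highest in interstitial nuclei with 1487 ± 276 CPM, and Tinag, a tubular basement membrane antigen, in proximal tubule with 548 ± 39.1 CPM.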
